A study of Mus musculus with 5 samples.

Results

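Chemokine receptors are the G protein-coupled receptors through which leukocytes read chemokine gradients, and 9 of them were examined in mouse lung immune cells after bleomycin. They were *Ccr1*, *Ccr2*, *Ccr6*, *Ccr7*, *Cx3cr1*, *Cxcr1*, *Cxcr2*, *Cxcr4* and *Cxcr6*, chosen by gene symbol as 9 of the 28693 features in the count matrices. Immune cells came from lungs of Ms4a3-CreER;R26-tdT mice, in which tamoxifen lets a Cre driven by the Ms4a3 locus switch on tdT in Ms4a3-expressing myeloid progenitors and their progeny. Control (sham) mice had received PBS, and the other groups were taken 3, 7, 14 and 28 days after bleomycin, a drug that injures the lung and leads to fibrosis. All 5 groups carried the same genotype. Per the study's methods, adult mice of both sexes were used and bleomycin was given into the trachea. How many animals entered a library was not given in the sources used here.

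Each group was 1 droplet scRNA-seq library, so no time point had a replicate and no test between time points was possible. Of 52800 barcodes, 44772 held 300 to 8000 genes and 800 to 60000 UMIs, fewer than 15% of them mitochondrial (7757 to 10280 per library), with a median of 9260 to 14254 UMIs. Each library held 89769386 to 167506186 UMIs in total. Any pair of libraries shared 22 to 41 cell barcodes, at most 0.42% of either. The day 7 library stood apart, because its lowest barcode held 4624 UMIs against 500 to 502 elsewhere. Only 73 neutrophils were gated from it, against 429 to 1112 elsewhere. Some of the values compared with it are also given with that floor applied, though not for every gene or library.

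Cell types were gated on marker genes that included no chemokine receptor and no chemokine, so the receptor levels below played no part in the naming. The gates held 36235 cells, 72.5% to 91.8% of the cells kept in each library. Levels of gate genes in the gated cells follow from the gates and are no separate check of them. *Retnlg*, a neutrophil gene used for the gate, stood at 7175 to 9455 CPM in gated neutrophils against 4.34 to 17.9 CPM in alveolar macrophages (AMs), and *C1qa*, also a gate gene, stood at 3114 to 4505 CPM in C1q macrophages against 0 to 92.5 CPM in classical monocytes. Some gate genes also stood outside their gate. *Chil3*, an AM marker, stood at 1308 to 2893 CPM in classical monocytes and at 295 to 2488 CPM in neutrophils. *Ly6c2*, a classical monocyte marker, stood at 2286 CPM in day 3 C1q macrophages. Libraries were not aligned to each other, and cells of one gate often fell into different clusters by library. Of the day 3 B cells, 644 of 696 lay in cluster 48, while B cells of the other libraries lay mostly in cluster 22. For AMs and C1q macrophages the leading cluster differed in all 5 libraries.

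Chemokine receptors couple to inhibitory G proteins, and most bind several chemokines. CXCR1 and CXCR2 bind the ELR-motif CXC chemokines that draw neutrophils, CCR2 binds CCL2 and CCL7 and lets classical monocytes leave bone marrow, and CX3CR1 binds fractalkine on endothelium. CCR7 guides dendritic cells and naive lymphocytes to lymph nodes, CCR6 binds CCL20 at mucosal surfaces, CXCR6 binds CXCL16 and marks tissue-homing T cells, and CXCR4 binds CXCL12 and retains cells in bone marrow.

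*Cxcr1* (ENSMUSG00000048480) and *Cxcr2* (ENSMUSG00000026180) lie near each other on opposite strands of chromosome 1 (GRCm38, GENCODE vM21), at chr1:74191785-74194631 (minus strand) and chr1:74153989-74161246 (plus strand). A further 4 members lie on chromosome 9, namely *Cxcr6* (chr9:123806475-123811760), *Ccr1* (chr9:123962124-123968692), *Ccr2* (chr9:124101950-124113557) and *Cx3cr1* (chr9:119901616-120069879). *Ccr6* lies at chr17:8236043-8257141, *Ccr7* at chr11:99144196-99155077 and *Cxcr4* at chr1:128588199-128592293. The 250 bases before the RefSeq starts of *Cxcr1* (chr1:74194632-74194881, minus strand) and *Cxcr2* (chr1:74153744-74153993, plus strand) are printed from RefSeq on GRCm38.p6, 5′ to 3′, because both receptors of this neighbouring pair are followed in neutrophils and AMs below. Capitals mark matches to the motifs searched.
Cxcr1: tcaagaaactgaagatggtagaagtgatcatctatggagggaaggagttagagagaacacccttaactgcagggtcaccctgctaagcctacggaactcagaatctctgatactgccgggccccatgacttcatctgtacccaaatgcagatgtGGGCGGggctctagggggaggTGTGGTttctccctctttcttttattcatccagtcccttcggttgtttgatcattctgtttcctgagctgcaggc
Cxcr2: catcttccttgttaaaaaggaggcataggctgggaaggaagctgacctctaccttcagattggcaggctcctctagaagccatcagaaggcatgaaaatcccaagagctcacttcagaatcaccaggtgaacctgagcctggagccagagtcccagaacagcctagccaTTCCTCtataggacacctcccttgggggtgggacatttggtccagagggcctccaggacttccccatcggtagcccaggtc

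On both strands, 5 motifs were searched in the same window of 27025 promoters, 8 of them of members (*Ccr7* was not among them). In *Cxcr1* the capitals mark a GC box (GGGCGG), found in 32.9% of all promoters, and a RUNX motif (TGTGGT), found in 14.2%. In *Cxcr2* they mark the PU.1 core (GAGGAA, here on the other strand), found in 23.1% of all promoters. Among the other members, *Ccr1* and *Ccr6* also held the PU.1 letters, *Ccr1*, *Cx3cr1* and *Cxcr6* the RUNX letters, and *Cxcr4* the GC box and the TATA box (TATAAA, 12.97% of promoters), while the C/EBP letters (TTGCNNAA, 9.55%) were in none of the 8 windows. These are matches of letters only.

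**Figure D1:**
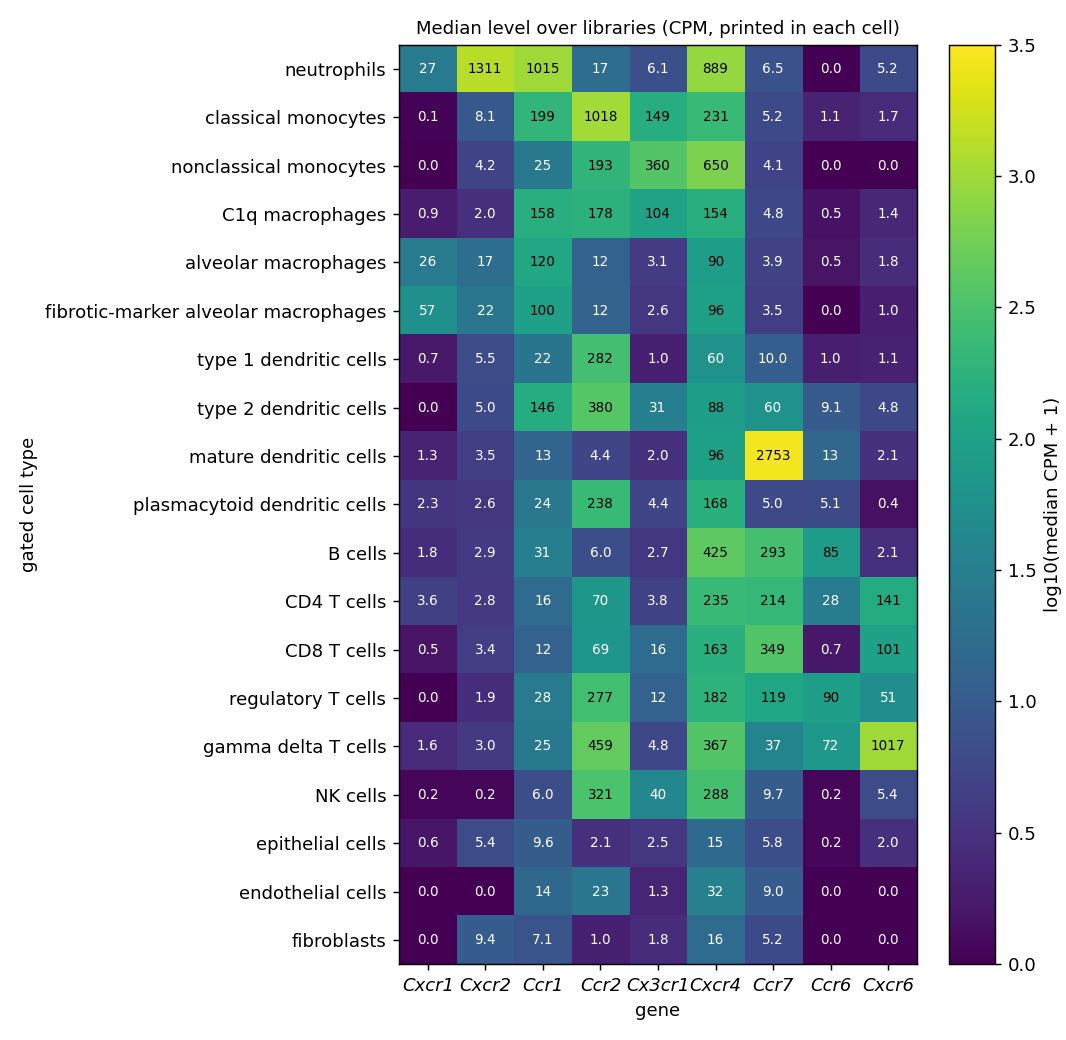
Median level over libraries of each receptor (columns) in each gated cell type (rows), in CPM (UMIs of the gene per 1e6 UMIs), with the colour on a log10(CPM + 1) scale. Neutrophils led for *Cxcr2*, *Ccr1* and *Cxcr4*, classical monocytes for *Ccr2*, mature dendritic cells for *Ccr7* and gamma delta T cells for *Cxcr6*.

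The leading cell type by median level differed between receptors, with neutrophils leading for 3 of the 9. A level below pools all cells of a type in 1 library and divides the UMIs of the gene by all UMIs of those cells, scaled to counts per 1e6 UMIs (CPM). Its intervals are exact Poisson intervals that cover counting error only. Differences between cell types were tested with edgeR's quasi-likelihood test on these sums, with library as a block and Benjamini-Hochberg adjustment over all genes tested. The libraries behind such a test came from different conditions, so it asks whether a difference held across them. As the map of median levels shows, the highest median was found in fibrotic-marker AMs for *Cxcr1*, in regulatory T cells for *Ccr6* and in nonclassical monocytes for *Cx3cr1*. For *Ccr6* the ranges of regulatory T cells, B cells and gamma delta T cells overlapped, whereas for *Cxcr2* the lowest neutrophil level (306.5 CPM) lay above the highest level of any other type (43.6 CPM). For *Cxcr4* the neutrophil levels (281 to 1485 CPM) overlapped with those of nonclassical monocytes, for example 614 CPM at day 3. In the day 7 library nonclassical monocytes lay above neutrophils for *Cxcr4*.

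*Cxcr2* was highest in neutrophils in every library. Its level in neutrophils was 954 CPM in sham, 1311 CPM at day 3, 306.5 CPM at day 7, 1511 CPM at day 14 and 1326 CPM at day 28. The day 7 library was low and the other 4 lay within 954 to 1511 CPM. After each cell was thinned to 2000 UMIs, which left out 405 shallower cells of 3133, 85.1% of neutrophils held a *Cxcr2* UMI (95% exact binomial interval, 83.7% to 86.4%), or 91.7% without thinning. B cells, which should lack the receptor, held one in 0.396% of cells (median depth 4867 UMIs, against 2752 UMIs in neutrophils), or in 1.44% without thinning.

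Day 7 neutrophils were few and unlike the others. The gate held 73 of them, with a median of 6651 UMIs against 2187 to 3366 UMIs in the other libraries, where 1061, 645, 729 and 423 neutrophils lay below the day 7 floor. With that floor applied, neutrophil *Cxcr2* was 627 CPM in sham, 932 CPM at day 3 and 840 CPM at day 14, still above day 7. *Csf3r*, the receptor of the neutrophil growth factor G-CSF, stood at 446 CPM in the day 7 neutrophils against 1830 to 2555 CPM elsewhere, and the 12 AM markers summed to 3093 CPM there against 400 to 2114 CPM (11 of 12 detected at day 7). The 8 C1q macrophage markers summed to 3008 CPM at day 7 against 175 to 1909 CPM, all detected in every library. The part of these values in the low receptor levels was not tested.

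*Ccr1* and *Cxcr4* followed the same libraries in neutrophils. *Ccr1*, a receptor for CCL3, CCL5, CCL6 and CCL9, stood at 924, 1015, 286, 1206 and 1080 CPM from sham to day 28. *Cxcr4* stood at 823, 889, 281, 1283 and 1485 CPM in the same order. For both genes the day 7 level lay below those of the other 4 libraries, which did not overlap with it. With the day 7 floor applied, *Cxcr4* was 359 CPM in sham, 642 CPM at day 3 and 584 CPM at day 14, so that the sham level came nearer to day 7.

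Neutrophils and classical monocytes, both myeloid cells of the blood, differed in all 7 receptors tested, where 41.9% of the 8030 genes tested passed the threshold. *Cxcr2* was higher in neutrophils by 7.51 on the log2 scale (SE 0.91, adjusted p = 0.000422), *Ccr1* by 2.66 (SE 0.52, adjusted p = 0.00401) and *Cxcr4* by 2.36 (SE 0.51, adjusted p = 0.00604), each in 4 of 4 libraries. *Ccr2* was lower by a log2 difference of -4.36 (SE 0.55, adjusted p = 0.00051) and *Cx3cr1* by -3.55 (SE 0.54, adjusted p = 0.00126). *Cxcr1* passed as well, but classical monocytes held only 1, 2, 0 and 0 *Cxcr1* UMIs, so its fitted fold depends on the prior count and the levels are given instead. *Ccr7* passed at a low level in both types (log2 1.54, adjusted p = 0.0194) and no longer did without the day 7 library (log2 0.99), without the library block (1.13) or with all cell types in 1 fit (1.21). Of the ligands 3 were higher in neutrophils and 4 lower among 11 tested, with *Ccl2* at -3.39 and *Cxcl2* at 3.36, and of the signalling genes 11 were higher and 1 lower among 19, led by *Rac2* at 2.13. The median log2 difference was 2.36 over the 7 members tested and -0.06 over all genes. The comparison was set up for receptors already known from neutrophils or monocytes, so this median describes that choice of genes.

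*Cxcr1* was found in AMs as well as in neutrophils. In AMs it stood at 50 CPM in sham (5099 UMIs in 5640 cells) and at 13.5, 26.5, 18.8 and 30.2 CPM at days 3, 7, 14 and 28. All 4 bleomycin libraries lay below sham. In neutrophils it stood at 18.2, 30.3, 9.63, 42.3 and 26.9 CPM from sham to day 28, a range that overlapped with that of AMs. Other cells held little of it: C1q macrophages had 0, 0, 0.907, 0.935 and 2.65 CPM, where 0 UMIs in sham and at day 3 allow up to 3 UMIs. The thinned share of AMs with a *Cxcr1* UMI was 5.55% (26.5% without thinning, median depth 17417 UMIs, 136 cells left out), and that of neutrophils was 4.58% (6.29% without thinning). In C1q macrophages, which are as deep (19679 UMIs), it was 0.27%.

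*Cxcr2* in AMs was highest at day 28. Its level was 5.73 CPM in sham, 3.74 CPM at day 3, 17.1 CPM at day 7, 28.1 CPM at day 14 and 43.6 CPM at day 28. The ratio of day 28 to sham was 7.61 (log2 2.93, 95% interval 2.79 to 3.06, counting error only), and no replicate stood behind it. Thinned shares ran from sham to day 28 as 1.21%, 0.824%, 3.01%, 4.21% and 7.81% (6.81%, 4.58%, 17.2%, 31.9% and 34.3% without thinning), while C1q macrophages of the bleomycin libraries held 0.26% to 0.485%. The level in C1q macrophages stayed at or below 3.51 CPM in every library.

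Neutrophil markers in the AM sums ran in another order than *Cxcr2*. The 10 neutrophil markers, all detected in each library, summed to 1407, 1400, 1216, 1071 and 755 CPM in alveolar macrophages from sham to day 28. *Csf3r* stood there at 19.3, 15.4, 13.3, 12.6 and 13.5 CPM, and *S100a8* at 155, 126, 234, 167 and 206 CPM. With predicted doublets removed, AM *Cxcr2* was 4.36, 3.62, 17.7, 27.3 and 43.1 CPM. Markers of other macrophages were higher after injury: the 5 fibrotic markers summed to 1549 CPM in sham AMs and to 3572 to 6838 CPM in the bleomycin AMs, and the 8 classical monocyte markers to 199 CPM and to 667 to 1877 CPM. Their part in the receptor levels was not tested.

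In single AMs *Cxcr1* and *Cxcr2* were seen together about as often as independent detections would give. At 2000 UMIs, 21 of 11245 AMs held both, 603 held *Cxcr1* alone and 331 held *Cxcr2* alone, against 19.5 that would hold both if the detections were independent. These counts pool libraries in which the receptors themselves differed, and are given without a test.

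**Figure D2:**
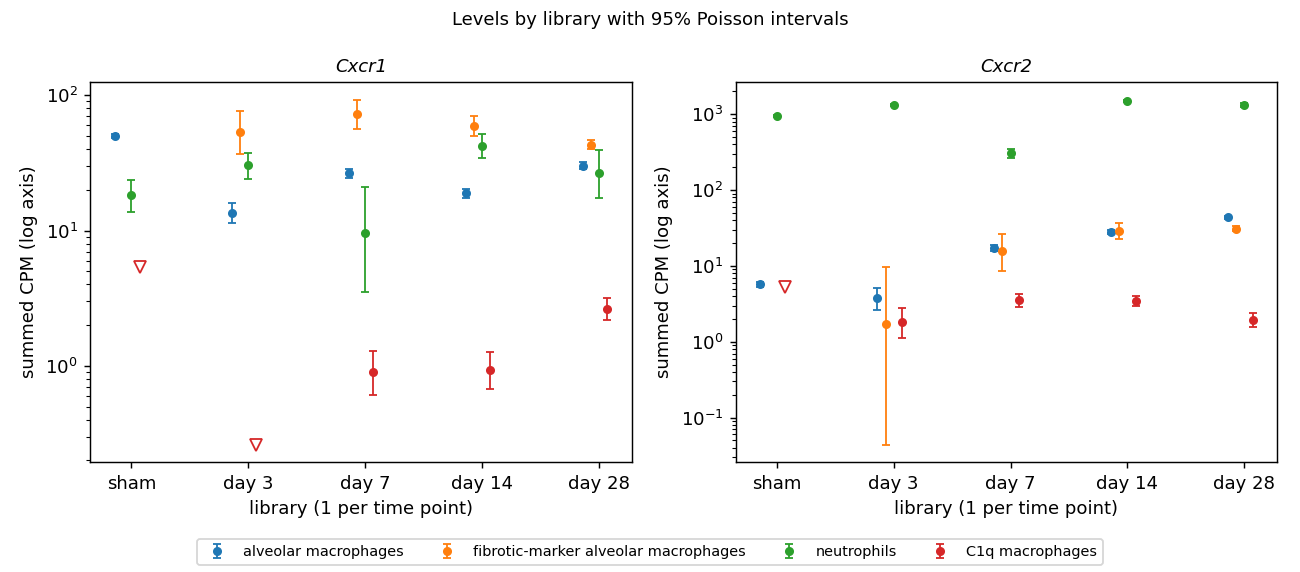
Summed CPM (log axis) of *Cxcr1* and *Cxcr2* in 4 cell types by library, with 95% Poisson intervals. Open triangles stand at the level of 3 UMIs where 0 UMIs were found. Sham AMs lay highest among the AM libraries for *Cxcr1*, and day 28 AMs highest for *Cxcr2*.

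AMs with fibrotic markers carried more *Cxcr1* than other AMs. These cells passed the AM gate and scored at least 0.38 on *Gpnmb*, *Mmp12*, *Mfge8*, *Spp1* and *Trem2*, which are known from macrophages of fibrotic lung, so they are a range of a score and not a separate type. Of 12176 AMs of both kinds, 1079 lay within 0.05 of that limit, 328 above it and 751 below. *Cxcr1* stood at 53.9, 72.8, 59.3 and 43.1 CPM at days 3, 7, 14 and 28 in the cells with fibrotic markers, above the other AMs of the same library in each case. It was higher by 1.26 on the log2 scale (SE 0.16, adjusted p = 1.125e-05, 4 of 4 libraries). It was the only 1 of the 8 members tested that passed, where 13.3% of the 11326 genes tested did, and *Cxcr2* stood at 1.74, 15.9, 28.8 and 31.1 CPM with a log2 difference of -0.18 (SE 0.12, adjusted p = 0.417).

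Predicted doublets made up 9.76% to 29.2% of the fibrotic-marker alveolar macrophages, and without them *Cxcr1* was 78.6, 64.7 and 49.6 CPM at days 7, 14 and 28. Without the library block the difference was 1.44 and did not pass. Thinned shares could be given for 2 libraries and their intervals overlapped, with 5.27% (3.68% to 7.29%) against 4.01% (3.25% to 4.89%) at day 28 and 5.88% (1.63% to 14.4%) against 2.75% (1.91% to 3.83%) at day 14. Of the ligands 4 were higher and 2 lower of 13 tested, with *Cxcl16*, the ligand of CXCR6, at 1.47.

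C1q macrophages, named for their complement C1q genes, and AMs, the macrophages of the airspace, differed in 4 of 9 members, where 36.9% of the 12555 genes tested passed. *Cxcr1* and *Cxcr2* were lower in C1q macrophages (log2 -4.28, SE 0.46, adjusted p = 0.000601, and -2.70, SE 0.44, adjusted p = 0.00333). C1q macrophages held 0 *Cxcr1* UMIs in sham and at day 3, so that the fitted *Cxcr1* fold depends on the prior count. *Cx3cr1* and *Ccr2* were higher (log2 5.24, SE 0.40, adjusted p = 0.000179, and 3.90, SE 0.58, adjusted p = 0.00226), each in 5 of 5 libraries. *Ccr1* differed by 0.51 (SE 0.24, adjusted p = 0.138), *Cxcr4* by 0.77 (adjusted p = 0.132), and *Ccr7*, *Ccr6* and *Cxcr6* were at low levels in both. Of the ligands 12 were higher in C1q macrophages and 2 lower of 15 tested, led by *Ccl8* at 6.80 and *Ccl12* at 5.84.

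*Ccr1* was found in both kinds of macrophages. Alveolar macrophages held 84.5, 162, 119.5, 170.1 and 92.5 CPM from sham to day 28, with days 3 and 14 highest. C1q macrophages held 196, 113, 158, 189.6 and 144 CPM. At 2000 UMIs 18.2% of AMs and 24.5% of C1q macrophages had a *Ccr1* UMI, against 1.41% of epithelial cells (median depth 14918 UMIs).

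Against sham, 1 to 4 receptors in AMs differed 2-fold or more, depending on the library. At day 3, 3 of 5 receptors with at least 10 CPM in either library were 2-fold or more from sham (*Ccr2* and *Ccr7* higher, *Cxcr1* lower), where 8.47% of all genes were. At day 7 it was 2 of 5 (*Ccr2* and *Cxcr2*) against 4.55% of genes, at day 14 4 of 5 (*Ccr1*, *Ccr2* and *Cxcr2* higher, *Cxcr1* lower) against 6.92%, and at day 28 1 of 4 (*Cxcr2*) against 6.94%. With 1 library a group these counts describe the libraries. AM *Ccr2* and *Ccr7* stood at 4.71 to 18.8 CPM and 2.08 to 11.4 CPM. In sham AMs *Ccr2*, *Ccr7* and *Cxcr2* lay below 10 CPM (4.71, 2.65 and 5.73 CPM). They were therefore counted only where the bleomycin library reached that limit. For *Ccr2* and *Ccr7* reaching it was already a 2-fold difference, so their place in these counts follows from the limit.

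Between the monocyte types, *Ccr2* was higher in classical and *Cx3cr1* in nonclassical monocytes, in each library that held enough cells of both. *Ccr2* stood in classical monocytes at 1129 CPM in sham, 504 CPM at day 3, 976 CPM at day 7 and 1060 CPM at day 14. *Cx3cr1* stood there at 247, 56.2, 143 and 155 CPM. Day 3 was the lowest library for both genes. Nonclassical monocytes, which patrol the vessel wall, held 493, 232, 323, 360 and 608 CPM of *Cx3cr1* from sham to day 28 and 239, 193, 289, 66.2 and 16.9 CPM of *Ccr2*, the last from 2 UMIs in 25 cells.

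The day 3 monocytes also differed in other genes. *Ly6c2*, the marker of inflammatory monocytes, stood at 5362 CPM in classical monocytes at day 3 against 358 to 1016 CPM in the other 3 libraries, and 850 cells passed the gate there against 27 to 110. Their leading cluster, 47, held 325 of them, whereas cluster 21 led in the other libraries. Against sham, 4 of 5 members differed 2-fold or more at day 3 (*Ccr1* and *Ccr7* higher, *Ccr2* and *Cx3cr1* lower), where 20.7% of genes did. *Ccr7* stood at 0.926 CPM in sham classical monocytes and entered this count only through its level at day 3 (18.7 CPM). The 5 fibrotic markers summed to 2655 CPM there against 118 CPM in sham. Nonclassical monocytes held *Ly6c2* at 2337 CPM at day 3, against 8.45 to 58.7 CPM in the other libraries. Of these day 3 cells, 344 of 369 lay in cluster 47, while cluster 21 led in the other libraries. The part of these values in the receptor levels was not tested.

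Nonclassical and classical monocytes differed in 4 of 4 members tested, where 16.9% of the 7087 genes tested passed. *Cxcr4* was higher in nonclassical monocytes by 1.59 on the log2 scale (SE 0.19, adjusted p = 0.000165) and *Cx3cr1* by 1.30 (SE 0.21, adjusted p = 0.00116). *Ccr1* was lower (log2 -3.40, SE 0.47, adjusted p = 0.000498) and so was *Ccr2* (log2 -2.27, SE 0.33, adjusted p = 0.000638), all in 4 of 4 libraries. The *Cx3cr1* call was lost without the library block (1.16). *Cxcr4* in nonclassical monocytes stood at 573, 614, 665, 836 and 650.5 CPM, against 129, 237, 276 and 225 CPM in classical monocytes. Of 9 ligands tested 6 were lower and 0 higher, led by *Ccl7* at -4.77 and *Ccl2* at -4.47, the ligands of CCR2.

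*Ccr2* in C1q macrophages was lowest at the last time point. It stood at 467 CPM in sham (47 cells), 178 CPM at day 3, 228 CPM at day 7, 108 CPM at day 14 and 26.3 CPM at day 28. The thinned share was 24.7%, 28.1%, 15.5% and 3.95% at days 3, 7, 14 and 28. Without thinning it was 49.7%, 53.5%, 46.4% and 14.3%. The thinned intervals of days 14 and 28 did not overlap with each other or with those before, whereas the unthinned intervals of day 14 (44.0% to 48.8%) and day 3 (46.2% to 53.2%) did. *Ly6c2* stood in C1q macrophages at 2286 CPM at day 3, so the gated cells differed between libraries. It stood at 8.91 CPM in sham and at 75.3, 1.00 and 0.601 CPM at days 7, 14 and 28. The part of this difference in the *Ccr2* levels was not tested. *Cx3cr1* in the same cells stood at 214, 61.0, 104, 117.5 and 63.9 CPM, with sham highest. At 2000 UMIs, 275 of 6302 C1q macrophages held both receptors, against 158 if the detections were independent. This count pools libraries in which both receptors differed, and is given without a test.

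Against classical monocytes, C1q macrophages were lower in *Ccr2* (log2 -2.03, SE 0.28, adjusted p = 0.00256, 4 of 4 libraries) and in *Cxcr2* (log2 -1.84, SE 0.47, adjusted p = 0.0347), 2 of 7 members tested where 10.7% of the 10618 genes tested passed. The count was 1 without any one of the day 3, 7 or 14 libraries. The *Cxcr2* difference was lost without the day 7 library (log2 -1.89) or without the day 14 library (log2 -1.38), without the library block (-1.64) and with all cell types in 1 fit (-1.55). The neutrophil marker *S100a8* stood in classical monocytes at 25.0, 51.8, 642 and 1289 CPM in sham and at days 3, 7 and 14. In C1q macrophages it stood at 39.2 to 174 CPM, and its part in the *Cxcr2* difference was not tested. *Cx3cr1* differed by -0.24 (SE 0.17, adjusted p = 0.403) and *Ccr1* by -0.20 (SE 0.29, adjusted p = 0.732). Ligands were higher for 3 of 13 tested, *Ccl8* at 4.39, *Cxcl1* at 3.33 and *Cxcl16* at 2.32.

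**Figure D3:**
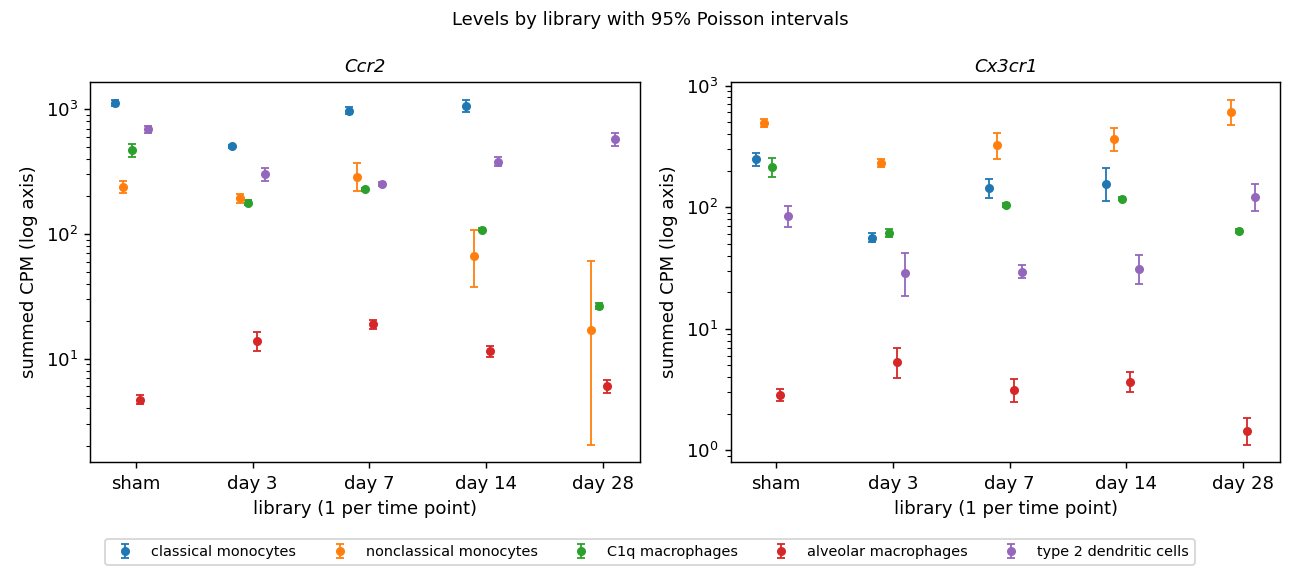
Summed CPM (log axis) of *Ccr2* and *Cx3cr1* in 5 myeloid cell types by library, with 95% Poisson intervals. In C1q macrophages *Ccr2* ran from 467 CPM in sham to 26.3 CPM at day 28, and nonclassical monocytes held the highest *Cx3cr1* level of the 5 types in every library.

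Dendritic cells were divided by *Ccr7*. Mature dendritic cells, which carry antigen to lymph nodes, held 3089, 3428, 2373, 2753 and 2261 CPM of *Ccr7* from sham to day 28, and 95.5% of them had a UMI at 2000 UMIs (98.8% without thinning, 14 cells left out). Type 2 dendritic cells held 36.9, 94.9, 60.5, 101.5 and 1.88 CPM, and type 1 dendritic cells 1.10, 179, 26.9, 9.97 and 3.52 CPM. The day 28 type 2 value came from 37 cells and the sham type 1 value from 2 UMIs. The day 3 type 1 value came from 40 cells, 12.5% of them predicted doublets. The ranges of mature and other dendritic cells did not overlap. The marker list of mature dendritic cells held no receptor, and 8 or 9 of its 9 markers were detected in every library.

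Mature and type 2 dendritic cells differed in 5 of 7 members tested, close to the 52.9% of the 8864 genes tested that passed. *Ccr7* was higher in mature dendritic cells by 5.90 on the log2 scale (SE 0.42, adjusted p = 1.427e-06) and *Cxcr4* by 0.54 (SE 0.12, adjusted p = 0.00348). *Ccr2* was lower (log2 -5.42, SE 0.52, adjusted p = 1.19e-05), as were *Cx3cr1* (log2 -4.42, SE 0.47) and *Ccr1* (log2 -3.36, SE 0.24), each in 5 of 5 libraries. The *Cxcr4* call was lost when all cell types entered 1 fit (log2 0.64). *Cxcr5*, the B cell follicle receptor, was higher by 4.52, and *Ccl5* led the ligands at 7.08.

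Both conventional subsets held *Ccr2*. Type 2 cells held 691, 301, 252, 380.2 and 572 CPM and type 1 cells 447, 123, 282, 264 and 352 CPM from sham to day 28, so that their ranges overlapped, and the difference was 0.46 on the log2 scale (SE 0.17, adjusted p = 0.0763). In both subsets the sham library was the highest. *Ccr1* (log2 2.54, SE 0.21, adjusted p = 2.231e-05) and *Cx3cr1* (log2 3.46, SE 0.59, adjusted p = 0.00213) were higher in type 2 cells, in 5 of 5 libraries, though type 1 cells held 0 *Cx3cr1* UMIs in sham and at day 3, so that this fitted fold depends on the prior count. These were 2 of 5 members tested, where 22.0% of the 8635 genes tested passed, and 4 passed without the sham library. *Xcr1*, the receptor that defines type 1 dendritic cells, was lower in type 2 cells by a log2 difference of -8.15 and *Cxcr3* by -3.81. Plasmacytoid dendritic cells held 321, 71.0, 215.5 and 261 CPM of *Ccr2* from sham to day 14.

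Lymphocytes held *Ccr7*, *Ccr6* and *Cxcr6* in a different order by type. In B cells *Ccr7* stood at 954 CPM in sham, 549.7 CPM at day 3, 231 CPM at day 7, 293 CPM at day 14 and 178 CPM at day 28. All 4 bleomycin libraries lay below sham. The day 28 to sham ratio was -2.42 on the log2 scale (95% interval -2.59 to -2.25, counting error only). Thinned shares were 75.8% in sham and 60.9%, 32.8%, 51.7% and 29.5% afterwards (90.0% and 88.9%, 63.2%, 70.6% and 38.4% without thinning). *Ccr6* in the same B cells stood at 68.4, 84.8, 83.9, 87.6 and 98.0 CPM.

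*Ccr7* was also highest in sham in some T cells. CD4 T cells held 446, 311, 196, 214.5 and 186 CPM from sham to day 28, and regulatory T cells 415, 169, 119, 66.3 and 24.8 CPM, the first from 23 cells and the last from 4 UMIs. CD8 T cells held 465.5, 481, 349, 232 and 269.9 CPM, with sham and day 3 alike. Sham was the highest library in CD4 and regulatory T cells and the second highest in CD8 T cells.

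B cells differed from CD4 T cells in 6 of 6 members tested, where 30.4% of the 8458 genes tested passed. *Cxcr6* was lower in B cells (log2 -6.27, SE 0.31, adjusted p = 3.172e-08). *Ccr6* was higher by 1.74 (SE 0.16, adjusted p = 4.227e-06), *Ccr1* by 1.38 (SE 0.18, adjusted p = 0.000106), *Cxcr4* by 0.83 (SE 0.12, adjusted p = 0.000155) and *Ccr7* by 0.64 (SE 0.16, adjusted p = 0.00781), the last in 4 of 5 libraries. *Ccr2* was lower (log2 -1.85, SE 0.54, adjusted p = 0.0225) and no longer passed without the day 14 or the day 28 library (log2 -1.60 in each case). The *Ccr7* difference no longer passed with the day 7 floor (log2 0.37), and without the library block neither did *Ccr7* (0.81) nor *Ccr2* (-1.49). *Cxcr5* was higher by 3.93 and *Ccr4* lower by a log2 difference of -8.24.

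*Ccr1* was low in lymphocytes. B cells held 12.98, 24.8, 77.2, 31.2 and 32.3 CPM and CD8 T cells 3.41, 11.6, 22.3, 21.9 and 6.63 CPM from sham to day 28, with day 7 highest in both. Neutrophil markers stood higher in the same library: the 10 markers summed to 1116 CPM in the day 7 B cells against 180 to 258 CPM in the others (9 or 10 detected), and to 817 CPM in the day 7 CD8 T cells against 127 to 525 CPM (8 to 10 detected). The 8 C1q macrophage markers summed to 410 CPM in sham B cells and to 1509 to 3843 CPM in the bleomycin B cells (7 or 8 detected). *C1qa* alone stood at 5.31 CPM in sham B cells and at 14.3 to 115 CPM in the bleomycin B cells. In CD4 T cells it stood at 0 CPM and at 11.5 to 96.6 CPM. The list also holds *Cd72*, so the B cell sum is not a measure of C1q macrophage RNA alone. The part of these markers in the *Ccr1* levels was not tested. With predicted doublets removed, *Ccr1* in CD8 T cells was 3.41, 2.90, 6.75, 15.2 and 5.46 CPM, so that day 7 was no longer highest.

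Gamma delta T cells held the highest *Cxcr6* level in each of the 5 libraries and also held *Ccr2*. They held 1498, 742, 596, 1140 and 1017 CPM of *Cxcr6* from sham to day 28 (20 cells in sham and 37 at day 3) and 348, 271, 459, 736 and 625 CPM of *Ccr2*. At 2000 UMIs, 81.1% of them had a *Cxcr6* UMI (92.1% without thinning, 62 cells left out, median depth 4237 UMIs), against 0.452% of B cells at a similar depth (4867 UMIs). Both receptors were found together in 526 of 925 cells, against 495 if independent, with libraries pooled and no test. Group 2 innate lymphoid cells, of which only the sham library held enough, had 728 CPM of *Cxcr6* and 504 CPM of *Ccr2* in 23 cells.

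Gamma delta and CD4 T cells differed in 5 of 6 members tested, where 15.8% of the 8001 genes tested passed. *Cxcr6* was higher in gamma delta T cells by 2.62 on the log2 scale (SE 0.15, adjusted p = 5.03e-08) and *Ccr2* by 2.57 (SE 0.23, adjusted p = 2.86e-06). *Ccr6* was higher by 1.07 (SE 0.27, adjusted p = 0.0125) and *Ccr7* lower (log2 -2.35, SE 0.48, adjusted p = 0.00376), each in 5 of 5 libraries. *Ccr1* passed narrowly (log2 0.78, adjusted p = 0.0409) and was lost without sham (0.77), day 7 (0.47), day 14 (0.94) or day 28 (0.89), as was *Ccr6* without day 14 (0.91). Without the library block *Ccr1* (0.99) and *Ccr7* (-2.16) were lost. *Ccr6* levels in gamma delta T cells were 127, 71.6, 35.1, 95.2 and 65.2 CPM, overlapping with the 68.4 to 98.0 CPM of B cells. *Cxcr3*, a receptor of interferon-induced chemokines, was lower by a log2 difference of -1.90.

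CD8 and CD4 T cells differed in 3 of 7 members tested, where 8.45% of the 8327 genes tested did. *Ccr6* was lower in CD8 T cells (log2 -5.20, SE 0.43, adjusted p = 1.29e-06), which held 0 to 4 *Ccr6* UMIs in any library, so that this fitted fold depends on the prior count. *Cx3cr1* was higher by 2.82 (SE 0.47, adjusted p = 0.00104, 4 of 5 libraries) and *Ccr7* by 0.51 (SE 0.13, adjusted p = 0.0196), the latter no longer past the threshold without day 3 (0.46) or day 28 (0.48). Without the library block only *Ccr6* passed, and *Ccr7* was also lost with all cell types in 1 fit (0.45). *Cxcr6* differed by -0.19 (SE 0.12, adjusted p = 0.399), with 173, 97.4, 101.2, 171 and 54.4 CPM in CD8 and 168, 141, 131, 149.9 and 93.8 CPM in CD4 T cells. Of the other receptors *Ccr4* was lower by a log2 difference of -5.28.

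*Cx3cr1* in CD8 T cells was highest at day 14. It stood at 28.1 CPM in sham, 14.1 CPM at day 3, 15.7 CPM at day 7, 129.8 CPM at day 14 and 14.6 CPM at day 28. The thinned share was 20.4% at day 14 (16.7% to 24.5%) and 1.98% to 3.98% in the other libraries (27.3% and 5.51% to 7.96% without thinning). With the day 7 floor applied, the day 14 level was 67.7 CPM and the others 12.1 to 27.5 CPM. Day 14 was the highest library in each case. Without the day 14 library the difference from CD4 T cells was 1.85 on the log2 scale and still passed.

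Within T cells, receptors of lymph node and tissue homing were seldom in the same cell. Of 1933 CD8 T cells at 2000 UMIs, 69 held both *Ccr7* and *Cxcr6*, against 137 if independent, and 24 held both *Ccr7* and *Ccr2*, against 78.3. Of 1010 CD4 T cells, 9 held both *Ccr7* and *Cxcr6*, against 50.2. For *Ccr2* and *Cxcr6* the counts went the other way, with 46 CD4 T cells against 15.8. These counts pool libraries in which the receptors themselves differed, and are given without a test.

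Regulatory T cells differed from CD4 T cells in 4 of 6 members tested, where 13.2% of the 7642 genes tested passed. *Ccr2* was higher in regulatory T cells by 1.69 on the log2 scale (SE 0.15, adjusted p = 6.222e-07), with 235, 303, 291, 277 and 186 CPM from sham to day 28 against 35.2 to 102 CPM in CD4 T cells. *Ccr7* was lower (log2 -1.13, SE 0.21, adjusted p = 0.000988). *Ccr6* was higher by 1.16 (SE 0.26, adjusted p = 0.00553) and *Ccr1* by 1.13 (SE 0.26, adjusted p = 0.00599), all in 5 of 5 libraries, but *Ccr6* was lost without day 14 (0.84) and *Ccr1* without day 7 (1.04). Only *Ccr2* of the 4 passed without the library block, and only *Ccr2* with all cell types in 1 fit. *Cxcr6* stood at 27.1, 50.6, 180.5, 222 and 31.0 CPM, with days 7 and 14 highest, and its log2 difference of -0.56 (SE 0.30, adjusted p = 0.278) did not pass. *Ccr4* was higher by 1.03.

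NK cells and CD8 T cells, both cytotoxic, differed in 4 of 6 members tested, where 22.4% of the 8330 genes tested passed. *Ccr7* was lower in NK cells (log2 -5.38, SE 0.27, adjusted p = 2.48e-08), as was *Cxcr6* (log2 -4.39, SE 0.33, adjusted p = 8.469e-07). *Ccr2* was higher by 2.14 (SE 0.23, adjusted p = 1.941e-05), at 481, 326, 287 and 317 CPM in sham and at days 3, 14 and 28. *Cxcr4* was higher by 0.45 (SE 0.14, adjusted p = 0.0361) and lost its call without sham (0.44), day 3 (0.25) or the library block (0.42). *Cx3cr1* differed by -0.004 (SE 0.30, adjusted p = 0.999), but CD8 T cells exceeded NK cells only at day 14. The ligands *Ccl3* and *Ccl5* were higher by 2.90 and 1.37.

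**Figure D4:**
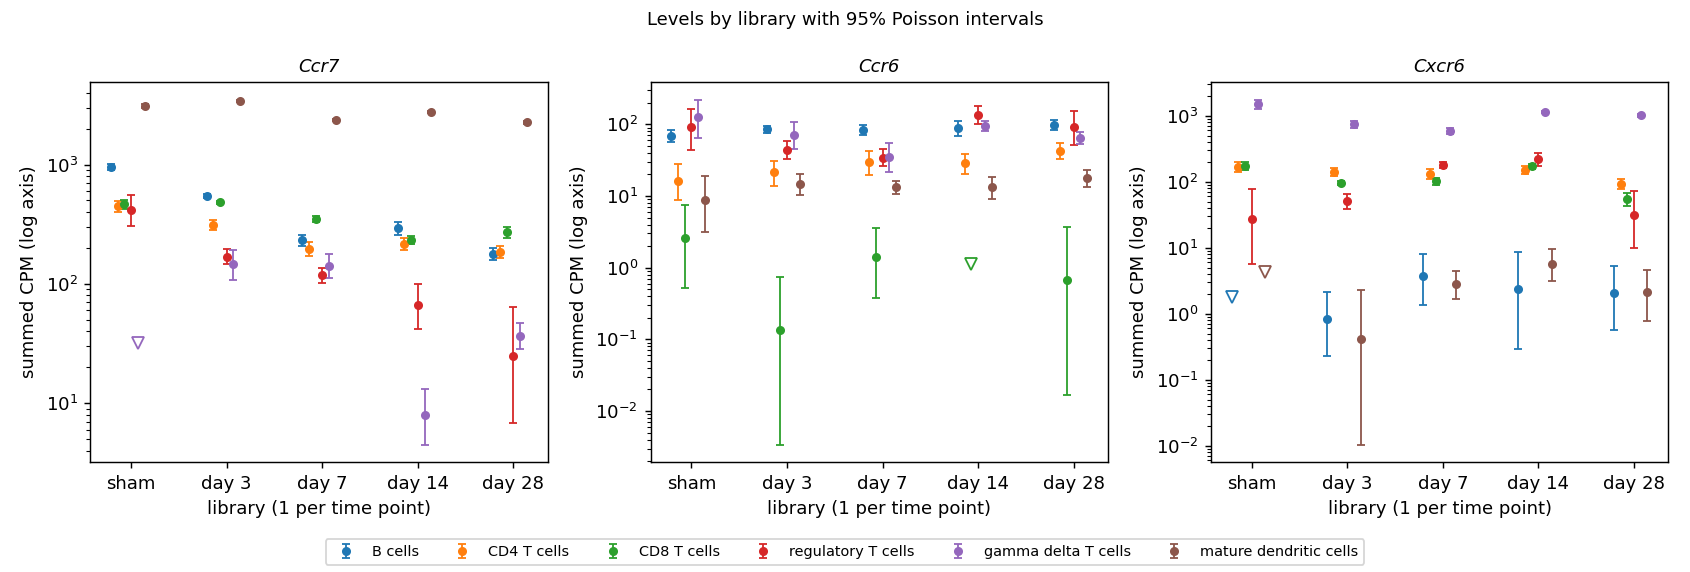
Summed CPM (log axis) of *Ccr7*, *Ccr6* and *Cxcr6* in 5 lymphocyte types and mature dendritic cells by library, with 95% Poisson intervals. Open triangles stand at the level of 3 UMIs where 0 UMIs were found. B cell *Ccr7* ran from 954 CPM in sham to 178 CPM at day 28, while B cell *Ccr6* stayed within 68.4 to 98.0 CPM.

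**Figure D5:**
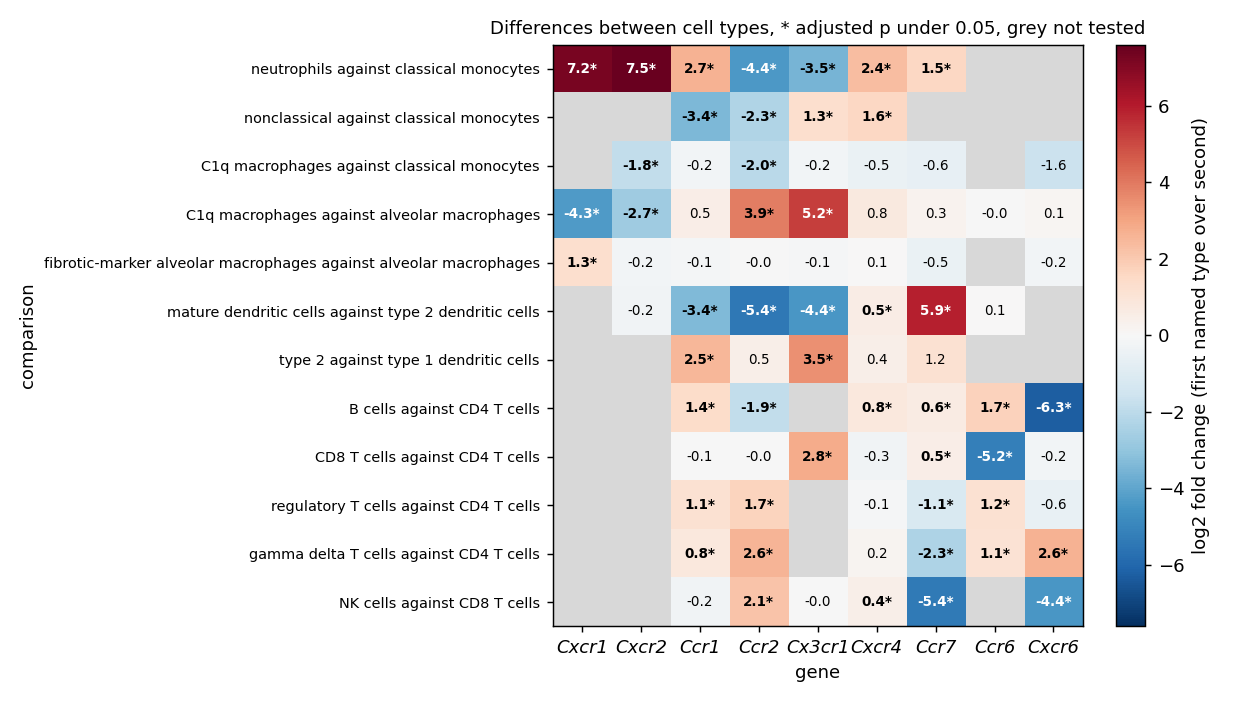
Log2 fold changes (colour and printed value) of each member in the 12 comparisons between cell types, with asterisks for an adjusted p under 0.05 and grey for members not tested. Positive values are higher in the type named first. Neutrophils, nonclassical monocytes and B cells differed from their comparison type in all 7, 4 and 6 members tested, where 41.9%, 16.9% and 30.4% of all genes tested passed. Fibrotic-marker AMs differed from other AMs in *Cxcr1* alone of 8 tested, where 13.3% of genes passed.

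Over all 36 pairs of a bleomycin library and sham with at least 50 cells of a type, 193 ratios of members at 10 CPM or more in either library could be formed. Of these, 58 were 2-fold or more higher and 28 lower (44.6%), against 15.3% of the 276978 ratios of all genes. A member below 10 CPM in sham entered only where the bleomycin library reached that limit, which favours higher ratios. For example, sham *Ccr1* stood at 3.41 CPM in CD8 T cells and at 3.77 CPM in CD4 T cells. The ratios within a type share the sham library, and ratios of several types share the bleomycin library. *Ccr1* gave 19 of the higher ratios and 1 of the lower. Most of these higher ratios were in B cells and T cells, where *Ccr1* was low. The C1q macrophage markers stood higher there than in sham in every bleomycin library, for example at 242 to 1010 CPM in CD4 T cells against 42.7 CPM in sham, and their part in these ratios was not tested. In day 7 CD8 T cells the *Ccr1* level was 6.75 CPM without predicted doublets against 22.3 CPM with them. *Cxcr2* gave 8 and 1, *Ccr7* 9 and 8, *Cx3cr1* 8 and 6, and *Ccr2* 6 and 6. *Cxcr4* gave 3 higher and 1 lower of 36.

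The genes whose levels ran most like a member's over 75 profiles (each 1 cell type in 1 library, among 13624 genes) were, for *Cxcr2*, *Il1f9* (a neutrophil marker of the gate), *Slc40a1* and *Gm17619* (Pearson r = 0.949, 0.949 and 0.947). For *Cxcr6* they were *Cd3e*, *Cd3g* and *Camk4* (0.958, 0.955 and 0.952), the first 2 of which are T cell markers of the gate. For *Cxcr1* they were *Rufy4*, *Fpr1* and *Rab44* (0.889, 0.881 and 0.878), and for *Ccr1* *Clec5a*, *Cd33* and *Nlrp3* (0.887, 0.878 and 0.876). The other members were less matched, with *Gmip*, *Btg1* and *Stk17b* for *Cxcr4* (0.843 for *Gmip*), *Dph5*, *Birc2* and *Gramd3* for *Ccr7* (0.815 for *Dph5*), *Mif4gd*, *Il9r* and *Nxpe3* for *Ccr6* (0.758 for *Mif4gd*), *Runx3*, *Itgb7* and *Coro7* for *Ccr2* (0.752 for *Runx3*) and *Clec4a1*, *Ms4a4a* and *Ptpro* for *Cx3cr1* (0.725 for *Clec4a1*). Profiles of 1 library share its depth and those of 1 cell type share its identity, so these correlations are descriptions. Among the members themselves, *Ccr1* and *Cxcr2* were most alike (0.734), followed by *Cxcr1* and *Cxcr2* (0.635).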

How the data were processed

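Chemokine receptor RNA was examined in 5 libraries of 10x 3′ single-cell RNA-seq, 1 per group. The authors made the deposited UMI counts with Cell Ranger 6.0.0 against mm10, and the matrices precede their filters and doublet removal. Barcodes were kept at 300 to 8000 genes and 800 to 60000 UMIs if fewer than 15% of the UMIs were mitochondrial. Cells were gated on mean marker scores (at least 3 markers detected), with limits set after looking at the scores. 7183 cells met no gate, 1354 met more than 1 lineage, and both were left out. Predicted doublets stayed in. Doublets (Scrublet, 3822 cells, at a rate that grew with the barcodes of a library) were removed in an alternative. UMIs were summed per cell type and library (at least 20 cells). Contrasts of cell types, with at least 3 libraries, used edgeR 4.0.16 in R 4.3.3 (TMM, quasi-likelihood test, filterByExpr, Benjamini-Hochberg adjustment, threshold 0.05), and the script was tested on simulated data. Clustering used scanpy 1.11.5 without chemokine genes. Ratios to sham needed 50 cells and 10 CPM in either library, and likeness used log2(CPM + 10) over profiles of at least 50 cells. Promoter sequences came from RefSeq, positions from GENCODE vM21. The members, the lists (15 other receptors, 19 ligands of the members, 21 signalling genes, 19 of them matched) and the tests were chosen with earlier results of these data known. All 9 members are named, with up to 3 called genes of each list with the largest change, and the 3 genes most like each member. 1 gene of the lists is not reported here. Libraries of 1 group were not replicated, so p-values measure the spread between libraries of different conditions. Intervals and limits for 0 counts (3 UMIs) cover counting error only. The alternatives were DESeq2 1.42.0, no TMM, no filter, no library block, all cell types in 1 fit, at least 50 cells, doublets removed, under 10% mitochondrial UMIs, the day 7 UMI floor, cells kept only where cluster and gate matched, and each library left out in turn.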

Additional observations from a re-analysis of the deposited data

How the results depend on the processing

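Of 47 differences of single members that passed the threshold, 31 passed under every alternative that could be run, and of 660 values under alternatives 608 kept their direction and their side of the threshold, 52 kept only the direction and 0 reversed in edgeR or DESeq2. Leaving out the library block cost the most calls, 14, followed by fitting all cell types together with 10, and the cause was not tested. Without the block, 1 member passed between C1q macrophages and classical monocytes (also 1 with all cell types in 1 fit), 0 between fibrotic-marker and other AMs in edgeR (*Cxcr1* kept its direction at 1.44), 1 between CD8 and CD4 T cells, 1 between regulatory and CD4 T cells (also 1 with all cell types in 1 fit) and 3 between gamma delta and CD4 T cells. Between type 2 and type 1 dendritic cells 4 passed without TMM, 6 without the filter, 4 with at least 50 cells and 4 where cluster and gate matched. With cluster and gate matched, 5 passed between CD8 and CD4 T cells and 3 between gamma delta and CD4 T cells. Leaving out 1 library at a time gave 1 to 2 members between C1q macrophages and classical monocytes, 2 to 4 between type 2 and type 1 dendritic cells, and 3 to 5 between gamma delta and CD4 T cells. The 86 ratios to sham of 2-fold or more became 69 to 89 under the alternatives, and the 57 pairs of a member and a cell type with a share of at least 10% became 45 to 76. Among differences that still passed, some moved by over 1.5 times. With cluster and gate matched, *Ccr7* was 2.09 in B cells and 2.04 in CD8 T cells, *Ccr6* 0.82 and -8.18, *Ccr1* 3.95 in type 2 dendritic cells and 1.96 in regulatory T cells, and *Cxcr4* 0.91 in mature dendritic cells. Without TMM, *Cxcr4* was 0.30 in mature dendritic cells and 0.69 in NK cells. With DESeq2, *Cx3cr1* was 5.37 in type 2 dendritic cells and *Ccr2* -3.30 in B cells, and with the day 7 floor *Cxcr4* was 1.48 in neutrophils. Contrasts with classical monocytes or fibrotic-marker AMs could not be fitted with cluster and gate matched, nor could 3 of them with at least 50 cells, because fewer than 3 libraries were left. No paired analysis was possible because the labels give every group 1 library. Depth limits the receptors with few UMIs, such as *Cxcr1* in neutrophils (6 to 97 UMIs per library) and every member in day 7 neutrophils.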

Other observations

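The red fluorescent reporter was not used to split cells, because a reporter UMI was found in 20.3% to 54.6% of B cells by library, a cell type outside the labelled lineage.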
